A study of Mus musculus with 3 samples.

Results

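The 10 genes described here belong to the response of cells to low oxygen and lie outside glycolysis: 9 that hypoxia induces, and Hif1a, which encodes the oxygen-regulated subunit of the transcription factor that induces them. They are Adm, Vegfa, Bnip3, Bnip3l, Egln1, Egln3, Car9, Ankrd37, Ddit4 and Hif1a. Each was found by its symbol among the aliases of the deposited table, each matched 1 row, and together they are 10 of 27389 gene clusters. The list was chosen from earlier results on the read values of these same 3 libraries, so its differences are given as descriptions and no test is made of them.

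The libraries come from CAD cells, a mouse catecholaminergic neuroblastoma line, harvested 72 h after transfection. One culture had received Ptbp1-specific and Ptbp2-specific siRNAs, one Ptbp1-specific siRNAs and one control siRNAs, all of the ON-TARGETplus type and delivered with Lipofectamine 2000. Ptbp1 encodes a polypyrimidine tract binding protein that controls splicing in most cells, and Ptbp2 encodes its neuronal paralogue. Poly(A)+ RNA was read as 36-base paired ends, and each of the 3 groups had 1 library, so no difference below has a replicate check and no p-value is given.

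When oxygen is plentiful, the prolyl hydroxylases encoded by the Egln genes modify HIF1A protein, the VHL ubiquitin ligase then recognises it, and it is degraded. When oxygen is scarce HIF1A persists, pairs with ARNT and binds DNA at a short core, an A or G followed by CGTG. Its targets supply oxygen (Vegfa, Adm), remove mitochondria (Bnip3, Bnip3l), buffer acid (Car9), slow growth through mTORC1 (Ddit4) and include the hydroxylases themselves (Egln1, Egln3), which closes a feedback loop. Hif1a itself is known to be controlled mainly through the stability of its protein.

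The cluster reads summed to 14242495 with both siRNAs, 16899549 with Ptbp1 siRNA and 16011466 with control siRNA. Ptbp1 had 1516 and 1486 reads in the libraries with both siRNAs and with Ptbp1 siRNA, against 7191 in the control, which was 4.44-fold lower (95% counting interval 4.20 to 4.69) and 5.38-fold lower (5.09 to 5.70). Ptbp2 had 633 reads with both siRNAs, 3044 with Ptbp1 siRNA and 784 with control siRNA, so after both siRNAs its RNA was near the control level (1.16-fold lower, 1.04 to 1.29). Of 11 catecholaminergic markers 10 reached 1 CPM (reads scaled to a common library total) in every library, with sums of 3464.9 CPM after both siRNAs, 2845.6 CPM after Ptbp1 siRNA and 3341.5 CPM in the control. Slc6a2, the noradrenaline transporter gene, had 0, 1 and 0 reads in that order. Single markers among the other 10 differed more than the sums. On the log2(CPM + 1) scale their differences from control ran from -0.26 to 1.21 after both siRNAs. After Ptbp1 siRNA they ran from -0.69 to 0.98. Markers of other cells were scarce, and their sums followed the same order as those of the genes described here. The 7 fibroblast markers summed to 7.8, 12.1 and 14.6 CPM, with Col1a2 at 0 in all 3 libraries. The 6 endothelial and blood markers summed to 13, 18.7 and 23.4 CPM, most of it Pecam1 at 11.3, 15.3 and 21.9 CPM, with Hbb-b1 at 0. Astrocyte markers summed to 1.4, 1.6 and 2.6 CPM over 5 genes, with Slc1a3 at 0. The part of such cells in the results was not tested.

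All 10 genes had their lowest scaled level after both siRNAs, an intermediate level after Ptbp1 siRNA and their highest level in the control. For Hif1a the levels after both siRNAs (184 CPM) and after Ptbp1 siRNA (187 CPM) did not differ beyond counting error. Levels per length are the deposited RPKM values, and CPM values are used for differences. Ddit4 stood far above the others at 173 RPKM after both siRNAs, 269 RPKM after Ptbp1 siRNA and 408 RPKM in the control. Vegfa came next and Car9 last, at 0.95, 1.99 and 3.04 RPKM. The sum over the 10 genes was 1105 CPM after both siRNAs, 1592 CPM after Ptbp1 siRNA and 2216 CPM in the control, and Ddit4 made up the largest part of it. In bulk RNA, fewer cells that express a gene and less RNA per cell cannot be told apart.

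**Figure D1:**
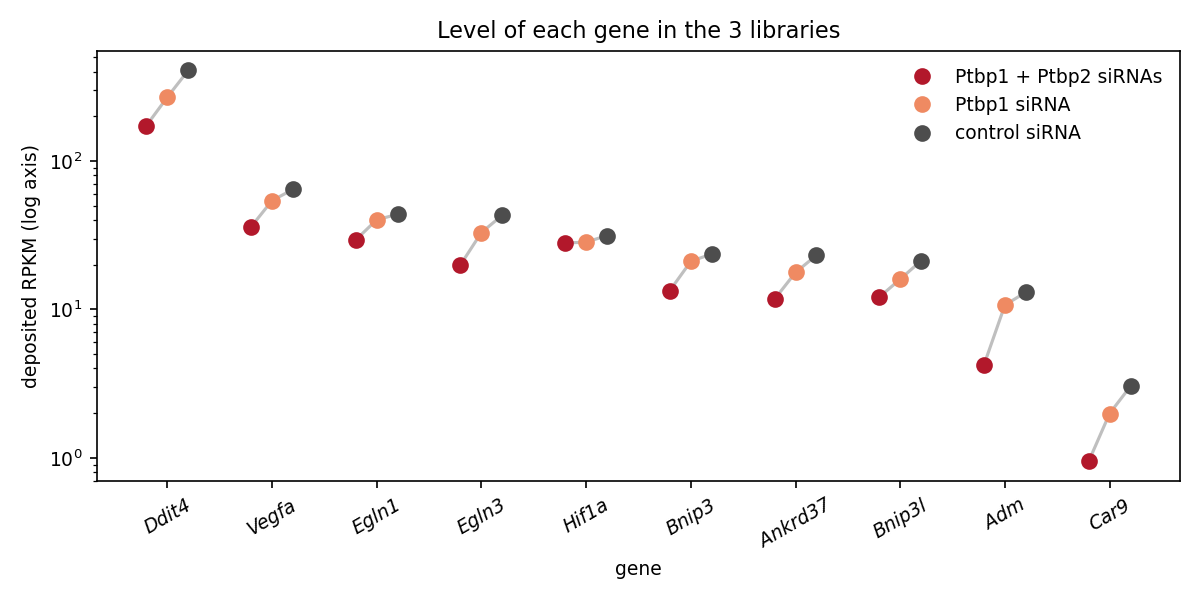
Deposited RPKM of each gene on a log axis in the library with Ptbp1 and Ptbp2 siRNAs, the library with Ptbp1 siRNA and the control library, 1 point per library, with genes ordered by control level. Every gene is lowest after both siRNAs, and Hif1a, at 28.0, 28.4 and 31.4 RPKM, changes least.

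The order of levels was nearly the same in the 3 libraries. After both siRNAs it ran Ddit4, Vegfa, Egln1, Hif1a, Egln3, Bnip3, Bnip3l, Ankrd37, Adm and Car9, and the exact Poisson intervals of neighbours overlapped for Egln1 with Hif1a and within the run from Bnip3 to Ankrd37. In the control, Egln1 and Egln3 had overlapping intervals at 43.7 and 43.2 RPKM (42.1 to 45.4 and 41.6 to 44.8). Both stood above Hif1a at 31.4 RPKM (30.4 to 32.5). After both siRNAs Egln3, at 20.0 RPKM (18.8 to 21.2), lay below Hif1a, at 28.0 RPKM (27.0 to 29.1). All intervals given cover counting error only: the reads were amplified and carry no molecular identifiers, so they do not stand for separate molecules. The order of genes also rests on the deposited lengths, which fall short of the annotated exon bases to unlike degrees. The lengths were 2525 against 3515 bases for Egln1, 2649 against 2662 for Egln3, 4353 against 5896 for Hif1a and 723 against 1403 for Ankrd37. With other lengths the order could differ.

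The largest differences were those between the library with both siRNAs and the control library. A gene was called lower by size at a log2 difference of -1 or less on the log2(CPM + 1) scale, with at least 1 CPM in the higher library and a 95% counting interval of the read ratio that excluded 1. By this rule 4 of the 10 genes, Adm, Car9, Ddit4 and Egln3, were lower and 0 were higher, beside 2.71% of all 13304 genes tested that were lower and 1.07% that were higher. At a limit of 1.5-fold, 9 of 10 were lower, beside 10% of all genes, and the exception was Hif1a. None was higher at 1.5-fold, beside 7.27% of all genes. All 10 differences were below 0, as were 51.3% over all genes. Their median was -0.95, beside -0.01 for all genes tested. The 10 genes had been picked with these values known, so the counts say how they lay among all genes and are no evidence about them.

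Ptbp1 siRNA against control siRNA gave smaller differences in the same direction. None of the 10 genes was called lower at the 2-fold limit, beside 0.459% of the 13284 genes tested, and 2 of 10, Ddit4 and Car9, were lower at 1.5-fold, beside 3.47% of all genes. None was higher at either limit, beside 0.279% of all genes at 2-fold and 3.0% at 1.5-fold. Again all 10 lay below 0, as did 51.6% of all genes, and the median was -0.39, beside -0.01 for all genes. Between the knockdowns, both siRNAs against Ptbp1 siRNA, 1 of 10 genes, Adm, was lower at 2-fold, beside 0.345% of 13338 genes. At 1.5-fold 5 of 10 were lower (Adm, Car9, Egln3, Bnip3 and Ddit4), beside 3.59% of all genes. Vegfa and Ankrd37 had read ratios of 1.503-fold and 1.512-fold lower and fell short of this limit only on the log2(CPM + 1) scale. None was higher, beside 0.105% of all genes at 2-fold and 1.84% at 1.5-fold. The median of this step was -0.61, beside -0.01 for all genes, and 10 of 10 were below 0, beside 50.8%. Of these, Hif1a at -0.02 had an interval that included no difference. The 3 comparisons share libraries in pairs, so their likeness is partly built in.

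**Figure D2:**
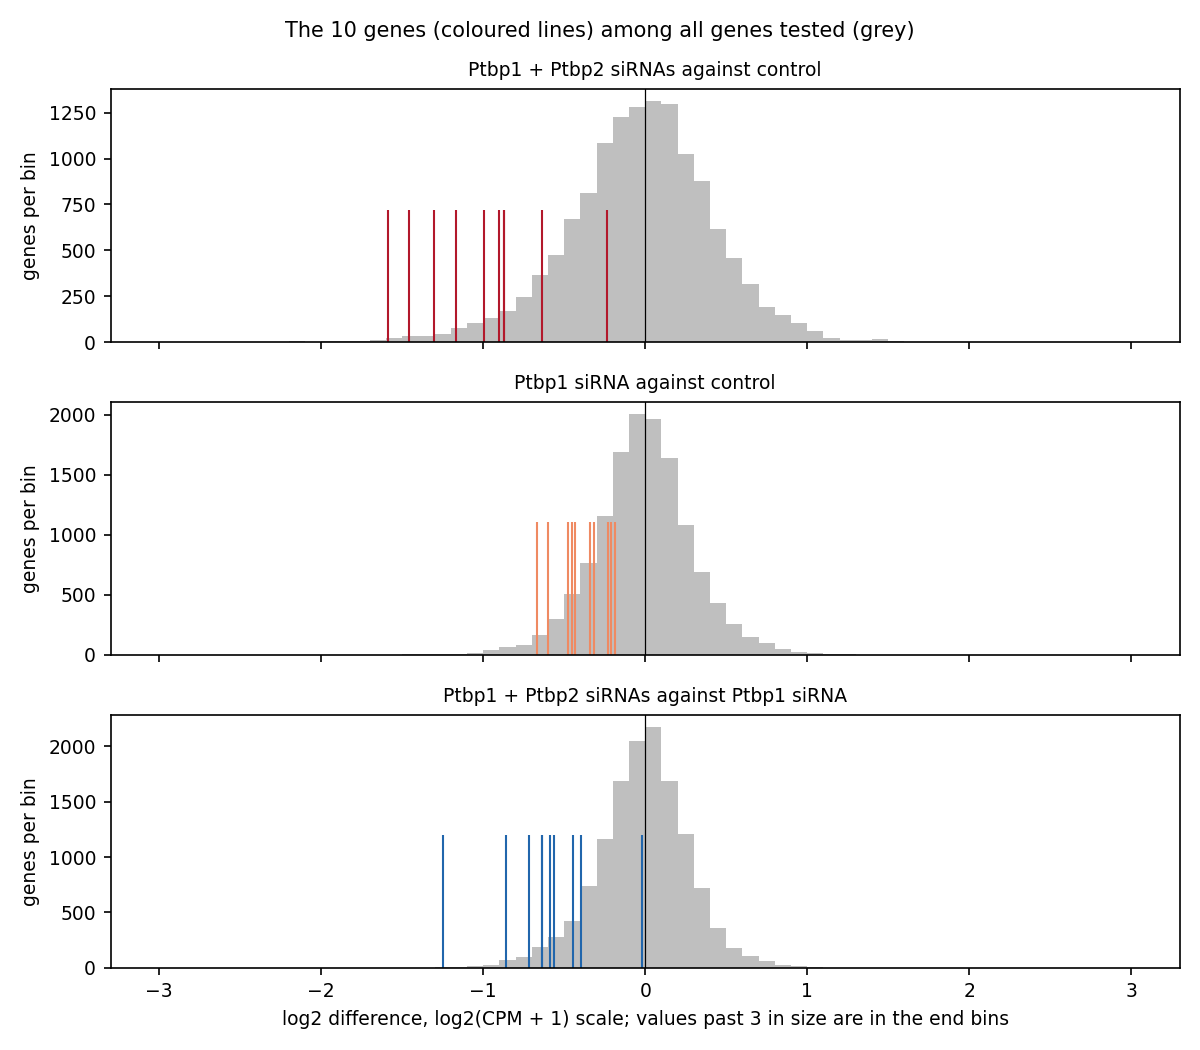
Number of genes per bin of 0.1 in log2 difference for all genes tested (grey) and the 10 genes (coloured lines, drawn to a fixed height) in the comparisons of both siRNAs with control, Ptbp1 siRNA with control, and both siRNAs with Ptbp1 siRNA. In each panel all 10 lines lie left of 0, with medians of -0.95, -0.39 and -0.61.

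The letters upstream of the starts of these genes were read for the HIF core. The genes were listed for their part in the hypoxia response, so the share of windows with the core describes the list. It was not set against the siRNA differences. RefSeq promoter windows of the GRCm38.p6 build were matched by symbol for 9 of the 10 genes, Bnip3l being the other, and the 250 bases upstream of each annotated start were searched on both strands for ACGTG and for GCGTG. Overlapping matches were each counted, and CACGTG, which reads the same on both strands, counts as 2 matches of ACGTG. Vegfa has 2 annotated starts, so there were 10 windows. ACGTG was present in 8 of the 10, which is 80.0%, against 16.6% of all 32841 RefSeq windows of this length. Either word was present in 9 of 10, against 38.6% of all windows. The windows of these genes were rich in G and C, with a median of 63.0% and a range of 50.8% to 86.0%, against a median of 52.4% over all windows. Among the 18347 windows within that range, 20.4% held ACGTG and 52.3% held either word. The lists most like these genes lay between. ACGTG was in 15 of 43 windows of the other HIF targets outside glycolysis, 34.9%, and in 10 of 27 windows of the glycolytic targets, 37.0%, and either word was in 69.8% and 81.5% of them. Of the 8 windows with ACGTG, 1 belongs to Hif1a, which is the gene of the factor's own subunit and is not counted among the 9 that hypoxia induces. Another is the window before the second Vegfa start, which lies inside the gene. The window before the first Vegfa start held neither word. A match describes the sequence and is neither a binding site nor a cause.

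The 7 genes whose only annotated start had ACGTG in the upstream window are shown, 5′ to 3′ toward the start, with each ACGTG or its reverse complement in capitals. The windows are chr7:138909507-138909756 for Bnip3 (minus strand), chr8:124949255-124949504 for Egln1 (minus strand), chr12:54203875-54204124 for Egln3 (minus strand), chr4:43506776-43507025 for Car9 (plus strand), chr8:45999851-46000100 for Ankrd37 (minus strand), chr10:59951771-59952020 for Ddit4 (minus strand), chr12:73907617-73907866 for Hif1a (plus strand), all in GRCm38.p6.
Bnip3: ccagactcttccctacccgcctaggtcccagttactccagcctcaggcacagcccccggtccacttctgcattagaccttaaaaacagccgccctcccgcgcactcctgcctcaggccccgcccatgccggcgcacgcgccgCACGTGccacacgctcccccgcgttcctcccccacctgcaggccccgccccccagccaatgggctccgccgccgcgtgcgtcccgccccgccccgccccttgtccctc
Egln1: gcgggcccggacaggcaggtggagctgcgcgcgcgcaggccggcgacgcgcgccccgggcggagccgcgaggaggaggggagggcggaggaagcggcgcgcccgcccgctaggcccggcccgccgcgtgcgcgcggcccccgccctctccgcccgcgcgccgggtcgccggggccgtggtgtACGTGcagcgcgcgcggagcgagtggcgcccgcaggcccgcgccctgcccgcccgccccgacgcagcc
Egln3: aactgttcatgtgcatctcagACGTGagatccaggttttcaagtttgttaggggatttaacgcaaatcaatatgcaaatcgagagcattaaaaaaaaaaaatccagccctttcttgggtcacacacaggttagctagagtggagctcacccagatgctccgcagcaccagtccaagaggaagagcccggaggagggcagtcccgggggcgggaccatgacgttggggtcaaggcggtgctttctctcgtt
Car9: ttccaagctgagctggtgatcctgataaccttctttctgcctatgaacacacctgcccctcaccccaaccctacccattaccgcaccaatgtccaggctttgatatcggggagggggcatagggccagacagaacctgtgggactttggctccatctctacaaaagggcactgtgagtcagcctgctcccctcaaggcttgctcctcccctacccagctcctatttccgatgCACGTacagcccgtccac
Ankrd37: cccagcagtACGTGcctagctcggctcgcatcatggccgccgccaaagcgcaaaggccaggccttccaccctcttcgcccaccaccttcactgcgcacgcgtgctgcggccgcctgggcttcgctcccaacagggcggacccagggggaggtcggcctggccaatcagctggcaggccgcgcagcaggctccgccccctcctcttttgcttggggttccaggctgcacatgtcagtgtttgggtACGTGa
Ddit4: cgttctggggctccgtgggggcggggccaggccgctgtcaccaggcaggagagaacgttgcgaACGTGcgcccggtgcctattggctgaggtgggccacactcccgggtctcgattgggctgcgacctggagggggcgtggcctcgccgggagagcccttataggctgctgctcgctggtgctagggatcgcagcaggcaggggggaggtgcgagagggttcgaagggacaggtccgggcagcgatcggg
Hif1a: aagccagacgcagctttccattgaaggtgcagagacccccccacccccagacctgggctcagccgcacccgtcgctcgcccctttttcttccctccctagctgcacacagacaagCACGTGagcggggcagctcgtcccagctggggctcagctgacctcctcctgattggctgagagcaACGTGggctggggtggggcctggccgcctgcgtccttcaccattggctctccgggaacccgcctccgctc

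In Ankrd37 one ACGTG lay 241 to 237 bases upstream and the other 6 to 2 bases upstream of the start. Car9 held its core 18 to 14 bases upstream, on the opposite strand, and Egln1 held one 68 to 64 bases upstream. In Ddit4 it lay 187 to 183 and in Egln3 229 to 225 bases upstream. Bnip3 and Hif1a each held the palindrome CACGTG, which is also the E-box read by other helix-loop-helix factors, and Hif1a a further ACGTG 70 to 66 bases upstream. Adm had GCGTG on the opposite strand at 90 to 86 and 54 to 50 bases upstream. The window before the first Vegfa start held neither word, and the second start, inside the gene, had 1 of each.

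**Figure D3:**
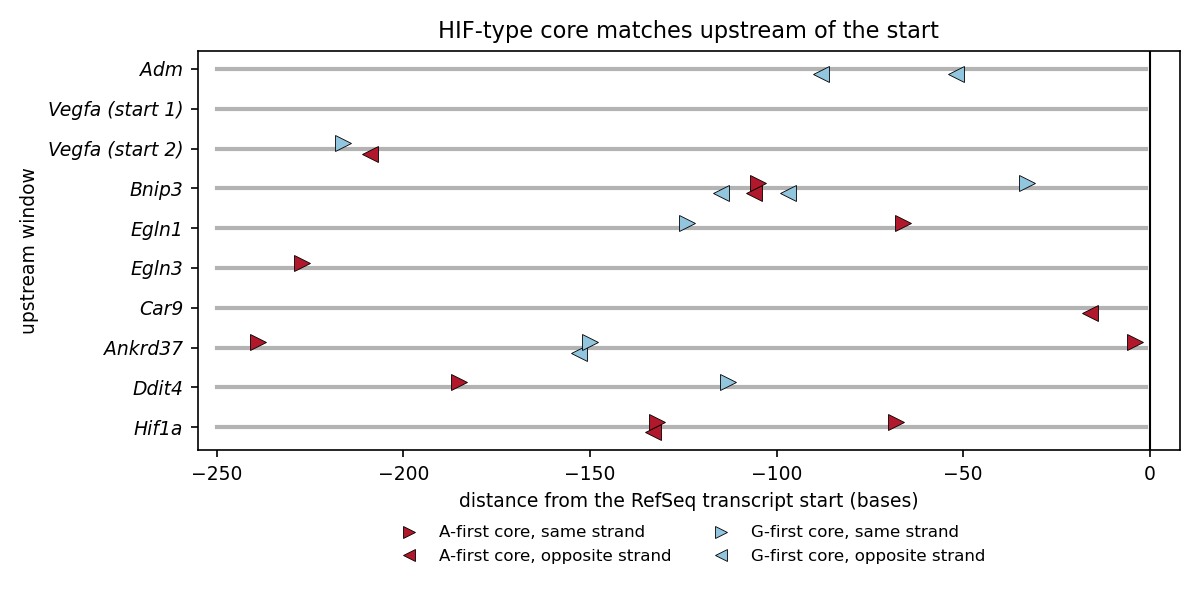
Positions of 5-base HIF-type cores in the 250 bases upstream of RefSeq starts, in bases from the start, for the 10 windows of 9 genes. Red triangles mark the core that begins with A, blue triangles the core that begins with G, and their direction shows the strand; 8 of the 10 windows hold a red triangle.

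Of the secreted factors, Vegfa encodes the main growth factor of blood vessels (mm9 chromosome 17, positions 46153944 to 46168700, minus strand). It had 2419 reads after both siRNAs, 4321 after Ptbp1 siRNA and 4837 in the control. Its level was 1.87-fold lower after both siRNAs than it was in control cells (1.78 to 1.97), 1.25-fold lower after Ptbp1 siRNA (1.20 to 1.30) and 1.5-fold lower after both siRNAs than after Ptbp1 siRNA (1.43 to 1.58). Adm encodes adrenomedullin, a vasodilator peptide (chromosome 7, 117771184 to 117773334, plus strand). Its reads were 126, 379 and 436 in the same order of libraries. It stood out for its second step, as after both siRNAs it lay 3.24-fold below the control (2.65 to 3.98) but only 1.28-fold lower after Ptbp1 siRNA (1.11 to 1.47). Between the knockdowns Adm was 2.53-fold lower after both siRNAs (2.06 to 3.12). On the log2(CPM + 1) scale this difference was -1.25, and 11 of 13338 genes lay further below 0. Genes with few reads can have a larger ratio and still rank behind Adm on this scale, as Car6 (3.30-fold lower) and Ndrg1 (3.10-fold lower) did.

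The partners of these factors did not share a direction. Among the other 9 VEGF ligands and receptors, 6 reached 1 CPM in the comparison of both siRNAs with control. Of these 1 was higher at 2-fold and 0 were lower, beside 1.07% and 2.71% of all genes. Nrp1, which encodes a co-receptor of VEGF and semaphorins, had 1330 reads after both siRNAs, 930 after Ptbp1 siRNA and 523 in the control, and was 2.72-fold higher after both siRNAs (2.46 to 3.01). Nrp2, its paralogue, was at a log2 difference of 0.86, the ligand genes Pgf and Vegfc at -0.46 and -0.22, and the ligand gene Vegfb at 0.21. The receptor genes Flt1 and Kdr had 4 reads or fewer in every library. Of the other adrenomedullin genes, Ramp2, a receptor-modifying protein gene, was at -0.12 with 33.4% of its exon bases shared with a neighbour, Adm2 at 0.03, and Calcrl, the receptor gene, at -0.64 on 32 reads against 62.

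Both mitophagy receptor genes were lower. Bnip3 (chromosome 7, 146082520 to 146101190, minus strand) and Bnip3l (chromosome 14, 67604078 to 67627662, minus strand) encode proteins of the outer mitochondrial membrane that bind LC3-type proteins. Bnip3 had 508 reads after both siRNAs, 949 after Ptbp1 siRNA and 1004 in the control, and Bnip3l had 842, 1323 and 1659 in the same order. After both siRNAs they were 1.85-fold (1.66 to 2.06) and 1.84-fold lower (1.70 to 2.01) than in the control, so their end points could not be told apart. Their first steps differed, as Bnip3 was 1.18-fold lower after Ptbp1 siRNA (1.08 to 1.29) and Bnip3l 1.4-fold (1.30 to 1.5), intervals that do not overlap. After both siRNAs 0 of 14 other measured mitophagy and BH3-only genes were lower at 2-fold, beside 2.71% of all genes, with a median of -0.24. At 1.5-fold 4 were lower, beside 10% of all genes. Those 4 were Gabarap at -0.79, Fundc1, another mitophagy receptor gene, at -0.71, Pink1, the kinase gene of damage-induced mitophagy, at -0.70, and Bbc3, which encodes the killer protein PUMA, at -0.63. Gabarap and Pink1 had nearly all of their difference after Ptbp1 siRNA, at -0.73 and -0.63.

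Oxygen sensing itself was represented by a pair of hydroxylase genes. Egln3 (chromosome 12, 55279970 to 55304836, minus strand) had 1141 reads after both siRNAs, 2240 after Ptbp1 siRNA and 2763 in the control, and was 2.27-fold (2.11 to 2.43) and 1.37-fold lower (1.30 to 1.45) than in the control. Egln1, the gene of the main hydroxylase of HIF1A (chromosome 8, 127432487 to 127472155, minus strand), had 1602, 2604 and 2667 reads. Its level lay 1.56-fold (1.46 to 1.66) and 1.14-fold (1.08 to 1.20) below the control. The difference of Egln3 thus exceeded that of Egln1 beyond counting error in both comparisons. The third paralogue, Egln2, which hypoxia is not known to induce, had 1109, 1230 and 988 reads and was 1.20-fold higher after both siRNAs (1.10 to 1.31).

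The transcription factor side was uneven. Hif1a (chromosome 12, 75002363 to 75047879, plus strand) had 2630 reads after both siRNAs, 3170 after Ptbp1 siRNA and 3307 in the control. It was 1.18-fold lower after both siRNAs (1.12 to 1.24) and 1.16-fold lower after Ptbp1 siRNA (1.11 to 1.22), and between the knockdowns its interval included no difference (1.01-fold lower, 0.96 to 1.07). On the log2(CPM + 1) scale 47.5% of all genes tested lay below it in this step. Its exons share 5.6% of their bases with an antisense gene, Gm15283, which had 12 reads or fewer. Arnt, the gene of the partner subunit, had 645, 1045 and 1405 reads in the order both siRNAs, Ptbp1 siRNA and control, and was 2.04-fold lower after both siRNAs (1.86 to 2.24) and 1.5-fold lower after Ptbp1 siRNA (1.38 to 1.62). Hif3a, whose product can restrain the other subunits and whose gene is itself induced by hypoxia, had 48, 120 and 169 reads and was 3.29-fold lower after both siRNAs (2.38 to 4.64). Epas1, the gene of HIF2A, had 0, 3 and 0 reads, where 0 allows up to 0.210 CPM after both siRNAs and 0.197 CPM in the control.

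The rest of the oxygen sensing list stayed close to 0. Of 18 measured genes other than the 10, Arnt and Hif3a were lower at 2-fold after both siRNAs and 0 were higher. The shares of all genes were 2.71% and 1.07%, and the median of the 18 was 0.08. Vhl, the ubiquitin ligase gene, was at 0.07 and Hif1an, the asparagine hydroxylase gene, at 0.13. The next in size were Os9, a gene of endoplasmic reticulum quality control, at -0.44, and Cul2, a scaffold gene of the VHL ligase, at 0.28.

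**Figure D4:**
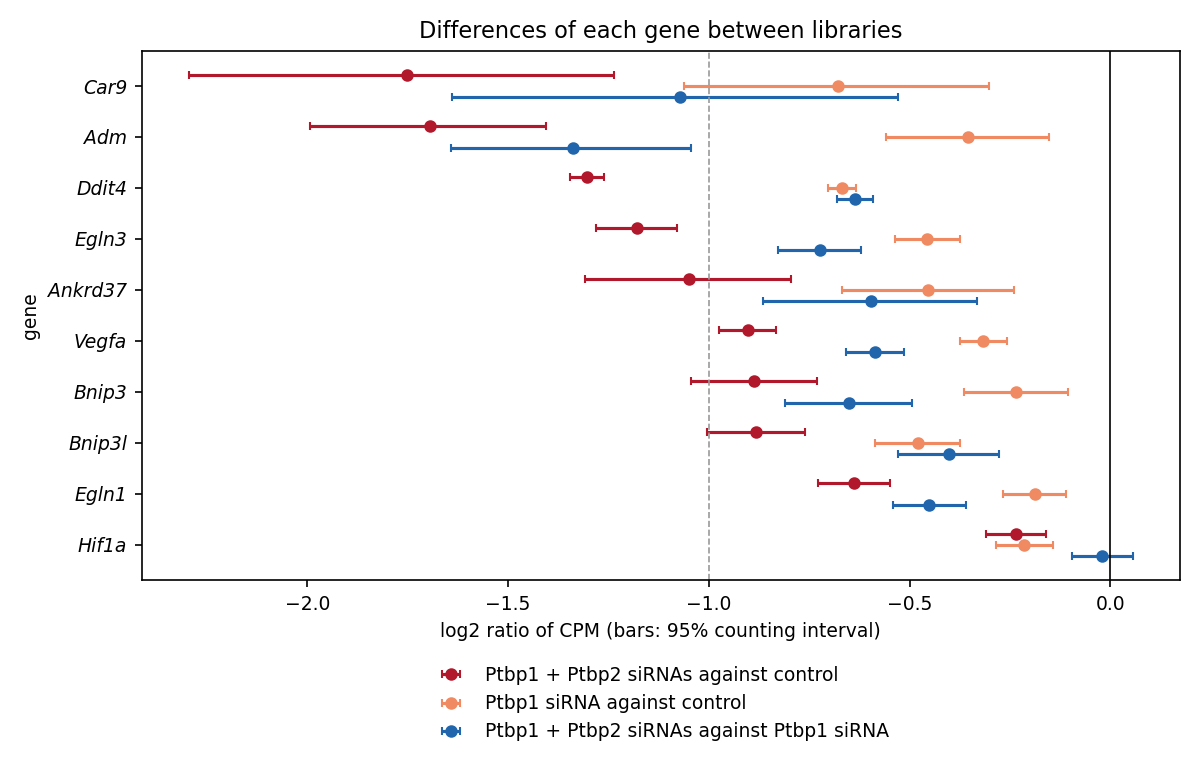
Log2 ratio of CPM for each gene with its 95% counting interval, in the comparisons of both siRNAs with control (red), Ptbp1 siRNA with control (orange) and both siRNAs with Ptbp1 siRNA (blue), with a dashed line at a 2-fold lower level. Car9 and Adm are lowest after both siRNAs at 3.37-fold and 3.24-fold below the control, and Hif1a is the 1 gene whose interval between the knockdowns crosses 0.

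Of the remaining targets, Ddit4 was the most abundant and so the most precisely measured. It encodes REDD1, which restrains mTORC1 through the TSC complex (chromosome 10, 59412424 to 59414519, minus strand). Its reads were 6294 after both siRNAs, 11627 after Ptbp1 siRNA and 16615 in the control. Both steps were of like size, 1.59-fold between Ptbp1 siRNA and control siRNA (1.55 to 1.63) and 1.55-fold between both siRNAs and Ptbp1 siRNA (1.51 to 1.60), so that after both siRNAs the gene was 2.47-fold lower than in the control library (2.40 to 2.54). The median of 11 other measured genes that act on or in mTORC1 was 0.05 after both siRNAs. In each comparison with control 1 of them was lower at 2-fold, beside 2.71% of all genes after both siRNAs and 0.459% after Ptbp1 siRNA. That gene was Txnip, an arrestin gene that responds to glucose, at 453, 846 and 1974 reads and 4.08-fold lower after both siRNAs (3.68 to 4.53), with 20.0% of its exon bases shared with an antisense gene. The TSC complex genes Tsc2 and Tsc1 were at 0.45 and 0.05, and the sestrin genes Sesn3 and Sesn1, which also restrain mTORC1, at -0.69 and -0.46.

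Car9 encodes a membrane carbonic anhydrase that many tissues hold little of when oxygen is ample (chromosome 4, 43519899 to 43526598, plus strand). It was the rarest of the 10, with 40 reads after both siRNAs, 100 after Ptbp1 siRNA and 144 in the control. It was 3.37-fold lower after both siRNAs (2.36 to 4.91) and 1.60-fold lower after Ptbp1 siRNA (1.23 to 2.09), and 9.3% of its exon bases are shared with an antisense gene. Car12, a second membrane enzyme induced by hypoxia in other cells, had 726, 1402 and 1353 reads and was 1.74-fold lower after both siRNAs (1.59 to 1.91), with an interval after Ptbp1 siRNA that included no difference (1.07-fold lower, 1.00 to 1.16). Of the other carbonic anhydrase genes, Car14 was at -0.79, with 17.5% of its exon bases shared. Car15 was at 0.46 on 31 reads against 20, with 82.0% shared. Car6 was called higher after Ptbp1 siRNA on 51 reads against 13, and had 13 after both siRNAs.

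Ankrd37, an ankyrin repeat gene induced by HIF1A (chromosome 8, 47082263 to 47085205, minus strand), had 183 reads after both siRNAs, 329 after Ptbp1 siRNA and 405 in the control. The read ratio was 2.07-fold lower after both siRNAs (1.74 to 2.48) and 1.37-fold lower after Ptbp1 siRNA (1.18 to 1.59). Its log2 difference of -0.995 with the pseudocount fell just short of a call. Of its annotated exon bases 28.9% are shared with Ufsp2 and Lrp2bp on the opposite strand, and the library does not mark strand. Ufsp2, with 793, 784 and 984 reads, was at -0.21 after both siRNAs and -0.47 after Ptbp1 siRNA, and Lrp2bp had 43 reads or fewer.

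Other HIF targets outside glycolysis, a list of 50 that does not hold the 10, lay mostly below 0. This list was also drawn up with earlier results of these data known, so its counts are a description. They are no evidence about the 10 genes. Of these 49 were in the table and 39 were measured after both siRNAs, of which 34 lay below 0, beside 51.3% of all genes tested, with a median of -0.66. At 2-fold 11 were lower and 1 higher, beside 2.71% and 1.07% of all genes, and at 1.5-fold 24 were lower and 1 higher, beside 10% and 7.27%. After Ptbp1 siRNA 0 of 40 were lower or higher at 2-fold, beside 0.459% and 0.279% of all genes. At 1.5-fold 7 were lower and 1 higher, beside 3.47% and 3.0%, and the median was -0.34. Between the knockdowns 3 of 40 were lower and 1 higher at 2-fold, beside 0.345% and 0.105% of all genes, with a median of -0.42. P4ha1, the gene of a collagen prolyl hydroxylase subunit, had 2445 reads after both siRNAs, 4541 after Ptbp1 siRNA and 6925 in the control and was 2.65-fold lower after both siRNAs (2.53 to 2.78). P4ha2, its paralogue, was 2.23-fold lower (2.15 to 2.31), and the lysyl hydroxylase genes Plod1 and Plod2, which were not called at 2-fold, were at -0.86 and -0.94.

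Ndufa4l2, which encodes a mitochondrial protein that lowers respiration in hypoxia, had 978, 1888 and 2715 reads and was 2.60-fold lower after both siRNAs (2.41 to 2.80). Stc1, the gene of the secreted glycoprotein stanniocalcin, was 2.80-fold lower (2.39 to 3.29), and Ccng2, an atypical cyclin gene, 2.67-fold (2.43 to 2.95). The repressor gene Bhlhe40 was 2.23-fold lower (2.11 to 2.37), Gbe1, a glycogen branching enzyme gene, 2.22-fold (1.91 to 2.59), and Zfp395 2.15-fold (1.89 to 2.46). Selenbp1 was 2.29-fold lower after both siRNAs (2.06 to 2.56) with 1163 reads after Ptbp1 siRNA and 1155 in the control, so its difference lay mostly in the second step, like that of Adm. Rora rested on 3 reads against 24, a ratio of 7.48-fold lower (2.27 to 38.8). Other classical targets lay near 0, with Hmox1, the haem oxygenase gene, at -0.10 and Wsb1 at 0.11.

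The glycolytic targets are described only for their ranges, and their list was also drawn up with earlier results of these data known. All 20 were measured, and after both siRNAs 6 were lower at 2-fold and 13 at 1.5-fold, beside 2.71% and 10% of all genes. Their medians were -0.80 after both siRNAs and -0.37 after Ptbp1 siRNA, both against control, and -0.40 between the knockdowns, beside -0.95, -0.39 and -0.61 for the 10 genes. They ran from Aldoc, an aldolase gene, at -1.97, to Pfkfb3, a regulator gene of glycolytic flux, at -0.04. The lactate exporter gene Slc16a3 was at -1.43, the glucose transporter genes Slc2a3 and Slc2a1 at -1.42 and -1.19, Pfkl, a phosphofructokinase gene, at -1.41 and Aldoa, another aldolase gene, at -1.40. Several genes in that list have near-identical copies in the genome and are uncertain.

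**Figure D5:**
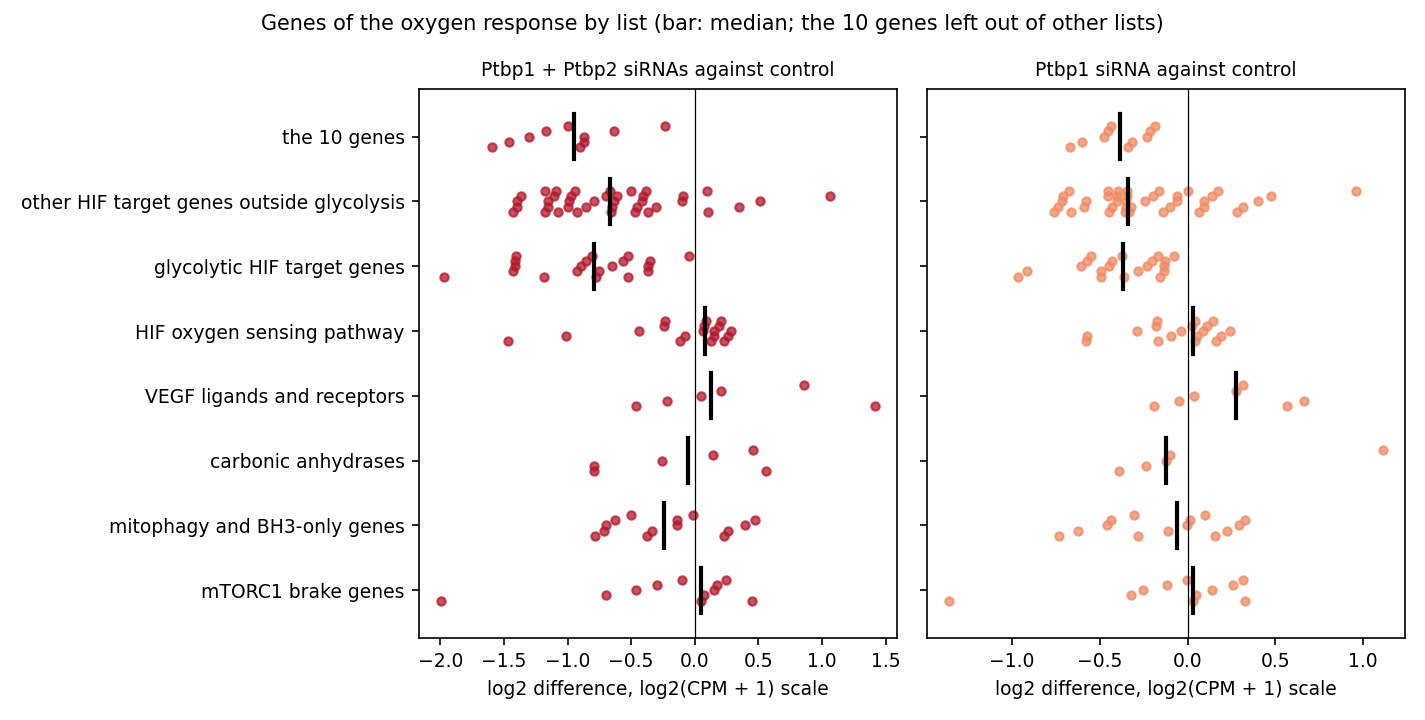
Log2 difference on the log2(CPM + 1) scale for each measured gene of 8 lists, for both siRNAs against control (left) and Ptbp1 siRNA against control (right), with 1 point per gene and a black bar at the list median. The medians of the 10 genes, the other HIF targets and the glycolytic targets are -0.95, -0.66 and -0.80 on the left, and the oxygen sensing list without the 10 genes is at 0.08.

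The genes most like the 10 in pattern were sought among 9558 others with a mean of at least 10 CPM, by the distance between their 2 log2 differences from control and the medians of the 10 (-0.95 and -0.39). The nearest 5 were Fam63b at a distance of 0.02, Ypel2 and Eno1 at 0.03 each, Rasgrp4 at 0.03 and Man2b2 at 0.04. With 3 libraries such likeness rests on 2 differences that share a control, and Eno1, a glycolytic enolase gene, has near-identical copies.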

How the data were processed

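Poly(A)+ RNA of 3 CAD cultures was sequenced, 1 library per siRNA group, with groups taken from the transfection label. Per the file headers, the authors' deposited table gives a whole-number read value, a length and an RPKM value for each of 27389 gene clusters; the submitters' processing notes name mm9. No source used here names the aligner or the counting tool. The read values are not plain counts, since 38 clusters are below 0 (lowest -65). These and 127 clusters with no length were left out, and the rest was handled as counts, so intervals are approximate. The deposited RPKM divides by length and by a library total. Worked back as medians over rows with many reads, these totals were 21572838 (both siRNAs), 25649604 (Ptbp1 siRNA) and 24167120 (control). No source says if a read value is a single read or a pair.

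Clusters were named from their aliases and the GENCODE annotation of the same build, and 1 row per symbol was kept (26840 rows). Scaling used a trimmed mean of M values, leaving out 30% of M and 5% of A values at each end (numpy 2.4.6, scipy 1.17.1). The factors were 1.01 (both siRNAs), 1.02 (Ptbp1 siRNA) and 0.97 (control), so 1 CPM stood for 14.3, 17.0 and 15.3 reads. Differences were taken between log2(CPM + 1) values, a scale on which low genes differ less than their ratio. Folds are CPM ratios with exact (Clopper-Pearson, conditional binomial) 95% intervals, and levels carry exact Poisson intervals. The steps were tested on simulated data. The members and lists (8 pathway lists, 155 names) were chosen with earlier results of these data known. Named were the 10 members, the targeted genes and, in each list, genes called at 2-fold or up to 4 with the largest difference. One gene that this rule names is not reported here. Named outside this rule, after their values were seen, were Egln2, Vhl, Hif1an, Epas1, Vegfb, Flt1, Kdr, Plod1, Plod2, Hmox1, Wsb1, Tsc1, Pfkfb3, Slc6a2, Pecam1, Angpt2 and the markers at 0. Alternatives were other pseudocounts, scalings, filters, fold limits, summed rows, the deposited RPKM and, added after seeing the data, members without shared exons.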

Additional observations from a re-analysis of the deposited data

How the results depend on the processing

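No paired analysis was possible because each group had 1 library, and for the same reason no replicate could be left out. Under 6 alternatives the 30 differences of single members gave 180 values, all of them below 0, and 11 moved by more than the counting interval. The count of members lower by size after both siRNAs against control ran from 3 to 5 under the alternatives at 2-fold, against 4, and was 9 at 1.5-fold. After Ptbp1 siRNA it was 0 under each 2-fold alternative and 2 at 1.5-fold. Between the knockdowns it was 1, but 2 with a pseudocount of 0.1 CPM, 0 with 5 CPM and 5 at 1.5-fold. The members' median after both siRNAs ran from -0.86 to -0.97, and over the 7 members with no shared exon bases it was -0.90.

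Counts over all genes depended more on the setting. For both siRNAs against control they were 142 higher and 361 lower. They became 341 higher and 539 lower with a pseudocount of 0.1 CPM, and 45 and 179 with 5 CPM. With the deposited RPKM they were 83 and 167, at 1.5-fold 967 and 1335, and with library totals alone 193 and 286. For Ptbp1 siRNA against control the 37 higher and 61 lower became 166 and 138 with 0.1 CPM and 4 and 26 with 5 CPM. With RPKM they were 13 and 35, at 1.5-fold 399 and 461, and with library totals 50 and 48. A filter at 5 CPM gave 22 and 57. Between the knockdowns the 14 higher and 46 lower became 86 and 170 with 0.1 CPM and 1 and 9 with 5 CPM. They were 7 and 19 with RPKM, 246 and 479 at 1.5-fold, and 6 and 32 with a filter at 5 CPM. Car9, at 40 to 144 reads, Adm, at 126 to 436, and Ankrd37, at 183 to 405, are limited most by depth.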

Other observations

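A few genes known as HIF targets lay on the other side of the control or turned between the knockdowns. Cxcr4, a chemokine receptor gene, had 45 reads after both siRNAs, 21 after Ptbp1 siRNA and 15 in the control, and was 3.21-fold higher after both siRNAs (1.75 to 6.19). Epo, the erythropoietin gene, had 223, 116 and 184 reads in that order, so it was 1.76-fold lower after Ptbp1 siRNA (1.39 to 2.25) and 1.30-fold higher after both siRNAs (1.06 to 1.58) than in the control, with 6.0% of its exon bases shared with Gnb2. Angpt2, the gene of a vessel-remodelling ligand, was at 0.52 after both siRNAs and 0.96 after Ptbp1 siRNA. Ndrg1, a gene strongly induced by hypoxia in many cells, had 19, 70 and 41 reads.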
